A study of Danio rerio with 16 samples.

Results

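The sarcomere is the contractile unit of striated muscle. Myosin in the thick filaments pulls on actin in the thin filaments, troponin and tropomyosin on the thin filament make that pull depend on calcium, and the Z disc anchors the thin filaments of neighbouring sarcomeres. Fast and slow fibres build the same structure from different isoforms of most of these proteins, and trunk muscle of zebrafish is largely fast, with slow fibres in a separate superficial layer.

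The genes described here code for sarcomere proteins other than actins. They were chosen by symbol (myosins, myosin binding proteins, troponins, tropomyosins, tropomodulins, leiomodins, alpha-actinins, myozenins, desmin and LIM, PDZ-LIM and kelch proteins of muscle) among genes that a RefSeq accession named on the array. The rule found 55 of 5952 named genes. One of them, the methyltransferase tpmt.1, matched by its letters only and was set aside, which left 54 genes with 92 probes: 14 of the thick filament, 22 of the thin filament and 18 of the Z disc. Titin, nebulin, myomesin, obscurin, telethonin and the slow myosin heavy chains were not among the named genes and were not analysed here.

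RNA of dorsal fast muscle was taken from adult zebrafish, 1 fish per array. The 8 exercised fish swam at 0.4 m/s, their optimal speed, for 6 hours a day, 5 days a week for 4 weeks (20 experimental days). The 8 non-exercised fish were held at 0.1 m/s. Arrays with 4 fish each lay on 4 slides, exercised fish 1 to 4 on slide 3 and 5 to 8 on slide 4, and non-exercised fish 1 to 4 on slide 1 and 5 to 8 on slide 2. Each slide held a single group and the scan day differed between the groups. The authors also kept each group in a swim tunnel of its own, so the fish of a group shared their housing. An effect of slide, scan day or tunnel and an effect of training therefore cannot be told apart. The signal is given as log2 of the processed intensity minus the 75th percentile of its array, and it compares fish for a given probe, not one probe with another. Each gene is given by its brightest probe. In a dissected muscle, fewer fibres of a type and less RNA per fibre cannot be told apart.

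The arrays differed in ways that touch these genes. A probe is called detected here where the scanner software marked it as well above background. The share of detected probes was 21.1% to 36.1% on the 4 arrays of slide 4, 44.1% to 54% on those of slide 3, and 33.7% to 48.5% in non-exercised fish. Spots with an outlier mark were left out of the fit, and among the 54 genes they gathered on slide 3: 14 genes lost the spot of exercised fish 1, 10 that of exercised fish 2 and 7 that of exercised fish 3, against at most 7 genes on any array of the non-exercised fish. In all 14 genes the spot of exercised fish 1 that was left out was the lowest of the exercised fish. Where keeping these spots ends a call or moves a named log2 fold change by over 1.5 times, the value with the spots kept is given beside it. The median log2 fold change was 0.26 over all probes, 0.07 over the named genes and -0.06 over the 1876 named genes detected on all 16 arrays, and the changes below are to be read against these values.

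Of the 54 genes, 36 were detected on all 16 arrays, 12 on some of them and 6 on none. The 6 never detected were tnni2a.1, tnnc1a, lmod2a, myl7, csrp1a and pdlim5a, and with myh6, detected in 1 exercised and 0 non-exercised fish, they include the genes for the cardiac forms of myosin heavy chain, myosin light chain and troponin C. By limma with Benjamini-Hochberg adjustment over all 43803 probes, 2 of the 54 genes were higher in exercised fish (3.70%, against 3.21% of all named genes), and 1 was lower (1.85%, against 3.01%). At an unadjusted p under 0.05, 11 genes passed (20.4%, against 23% of all named genes). In this fit, the share of sarcomere genes called thus lay near that of all named genes.

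The calls moved with the processing, and the shares of all named genes, in brackets below, did not move in step with them. From the main fit to quantile normalization, higher calls went from 2 to 5 of the 54 genes, and from 3.21% to 3.66% of named genes. Lower calls went from 1 to 2 of the 54 genes, and from 3.01% to 5.23% of named genes. The nearness of the shares in the main fit thus does not carry over to every run. After normexp correction with quantile normalization, 5 genes were called higher (4.52% of named genes) and 2 lower (7.01%), after quantile normalization alone 5 (3.66%) and 2 (5.23%), and after cyclic loess 5 (5.58%) and 2 (5.29%). A median shift left 1 higher (1.85%) and 2 lower (5.02%), and without background correction there were 3 (1.61%) and 1 (2.65%). With the outlier spots kept, 1 was higher (3.06%) and 1 lower (2.81%). Among genes detected on at least 8 arrays, 5 were higher (5.02%) and 1 lower (10.6%), and among those detected on all 16 arrays, 5 of 36 were higher (7.2%) and 1 lower (11.8%). The gene called lower under both filters was desma, since tnnt3a, detected on 7 arrays, is not among the genes they keep. The methods' test of single probes gave 2 higher (3.33%) and 1 lower (4.05%) after adjustment, and 3 (5.21%) and 2 (7.31%) at its own unadjusted threshold of 0.01. Array weights gave 3 (5.41%) and 2 (9.38%), and the replicate block 3 (3.58%) and 1 (4.17%). With the slide as a random block, 0 sarcomere genes were called in either direction, against 0.0504% of named genes higher and 0% lower. Against all non-exercised fish, the exercised fish of slide 3 alone gave 0 higher (2.01%) and 1 lower (2.01%). Those of slide 4 alone, the dimmest arrays, gave 7 higher (19.7%) and 0 lower (3.78%), and of these 7, lmod2a and tnnc1a were detected on no array and myh6 on 1.

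**Figure D1:**
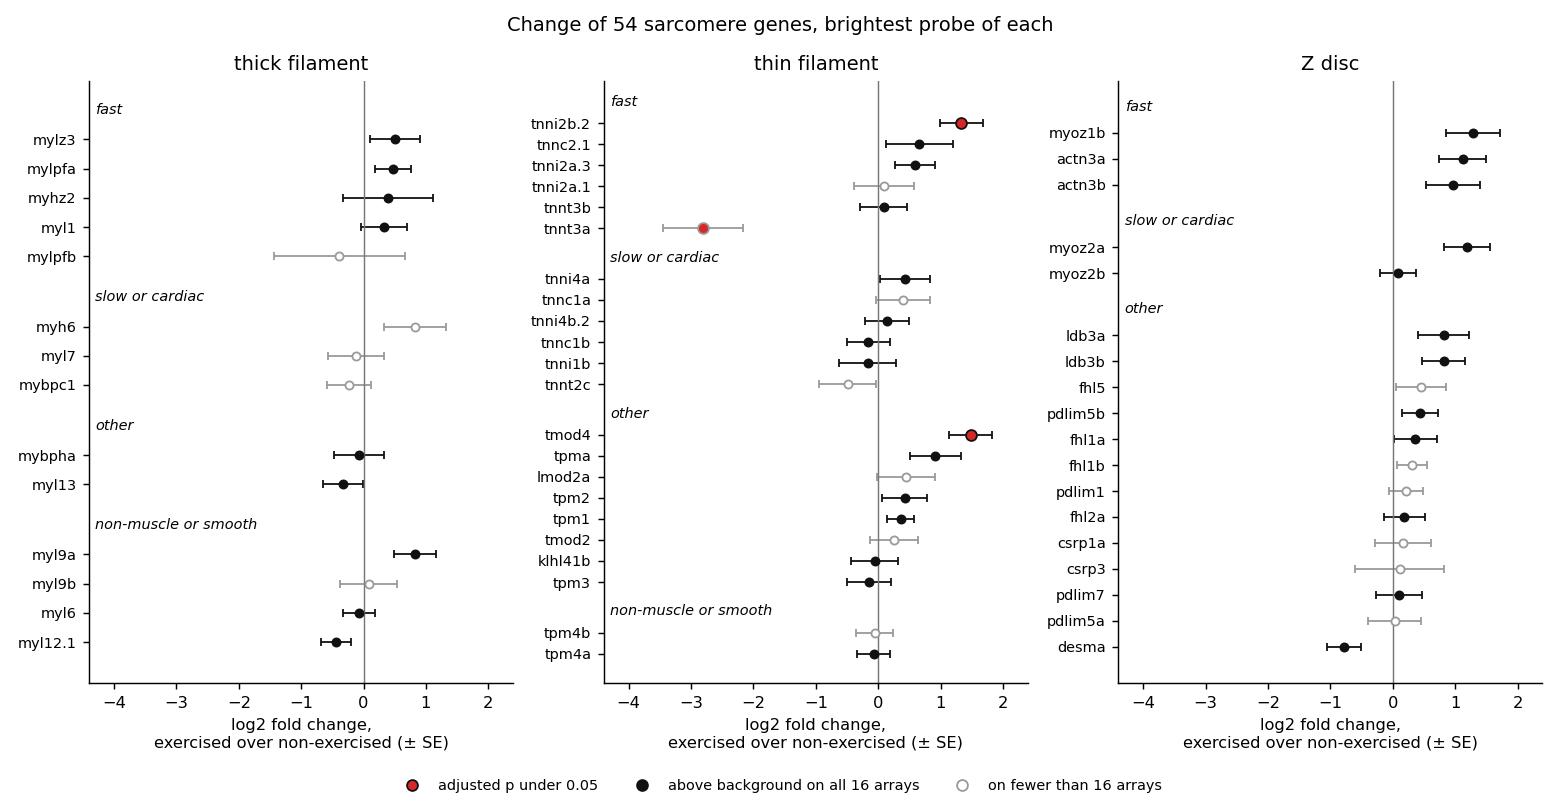
Log2 fold change, exercised over non-exercised (x axis, ± SE), of the brightest probe of each of the 54 genes, by sarcomere class and isoform type; red points have an adjusted p under 0.05, black points were detected on all 16 arrays and open grey points on fewer. The 3 red points are tmod4, tnni2b.2 and tnnt3a, and 17 of the 18 Z disc genes lie right of 0 under this scaling.

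On the thin filament, tmod4 and tnni2b.2 were higher and tnnt3a lower in exercised fish. The tropomodulin gene tmod4 codes for the skeletal muscle protein that caps the pointed end of the thin filament and so holds its length. Its signal (probe A_15_P104093) ran from 3.01 to 4.59 with a median of 3.93 in the 8 exercised fish, and from 1.37 to 3.39 with a median of 2.78 in the 8 non-exercised fish. All exercised fish but fish 1 lay above the highest non-exercised fish, and the lowest values of the non-exercised group were those of fish 3, 6 and 7. The log2 fold change was 1.48 ± 0.34 (SE, adjusted p = 0.0141), or 2.79-fold, and larger than the spread within either group (SD 0.51 and 0.82). Both slides of exercised fish were high, with means of 3.85 on slide 3 and 4.14 on slide 4, against 2.73 on slide 1 and 2.29 on slide 2. The call was kept with any 1 fish left out (adjusted p 0.00588 to 0.0343), and it was lost with the slide as a random block (1.48, adjusted p = 0.419) and with the exercised fish of slide 3 alone (1.34, adjusted p = 0.1). A second tropomodulin, tmod2, was detected in 4 exercised and 3 non-exercised fish and gave 0.25 ± 0.38 (adjusted p = 0.716).

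Troponin holds 3 subunits: troponin C binds calcium, troponin I inhibits the contact of actin with myosin, and troponin T ties the complex to tropomyosin. Of 6 fast troponin genes, the troponin I gene tnni2b.2 (A_15_P104996) was called higher. In the 6 exercised fish measured its signal ran from 8.52 to 9.46 with a median of 9.13, and in the 7 non-exercised fish measured from 6.86 to 8.59 with a median of 7.82. The spots of exercised fish 1 and 2 and of non-exercised fish 4 had been left out. The groups overlapped by 1 exercised fish (8.52), which lay below the highest non-exercised fish. The log2 fold change was 1.33 ± 0.34 (adjusted p = 0.0309). With the 3 spots kept, at 6.94 and 8.78 in the exercised fish and 8.46 in the non-exercised fish, it was 0.94 and not called (adjusted p = 0.154). The call was also lost after a median shift (adjusted p = 0.0681), with the slide as a random block (1.34, adjusted p = 0.469), with the exercised fish of slide 3 alone (1.53, adjusted p = 0.118), and without any one of exercised fish 3, 4, 5 or 8 or non-exercised fish 3, 6 or 7 (adjusted p up to 0.074). The fast gene tnni2a.3 gave 0.59 ± 0.33 (adjusted p = 0.358), and all 7 exercised fish measured lay above the non-exercised mean of 8.36. The spot of exercised fish 1, left out, was at 7.45 and below that mean. With the spots kept the change was 0.42 (adjusted p = 0.538).

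The fast troponin T genes stood apart from each other. The brightest of 2 probes of tnnt3a (A_15_P103742) was detected in 0 exercised and 7 non-exercised fish. Its values ran from -5.59 to -1.94 with a median of -3.45 in exercised fish, where they are background, and from -3.87 to 1.34 with a median of -0.48 in non-exercised fish. Of the non-exercised fish, 7 lay above every exercised fish and fish 4 did not. The gene was at least 2.1-fold lower in exercised fish, with group means of -3.54 ± 1.28 and -0.73 ± 1.58 (SD, n = 8 each, adjusted p = 0.0135), and the call was kept with any 1 fish left out (adjusted p 0.00219 to 0.0333). It was lost with the slide as a random block (adjusted p = 0.359), with exercised fish of slide 4 alone (adjusted p = 0.0532) and for the mean over both probes (adjusted p = 0.0505). The second probe (A_15_P101394) was detected in 1 exercised and 5 non-exercised fish and gave -2.03 ± 0.84 (adjusted p = 0.177). By contrast, tnnt3b (A_15_P111239), whose probe was bright in all fish, had values of 10.1, 9.5, 9.13 and 9.82 in exercised fish 5 to 8 and 9.53, 9.80, 9.14 and 9.73 in non-exercised fish 1 to 4, and every other spot had been left out. The values of the groups interleave, and the log2 fold change was 0.09 ± 0.38 (adjusted p = 0.905), which fell below 0 after normexp correction, quantile normalization, cyclic loess and a median shift, and was 0.25 with all spots kept. Its 4 other probes gave log2 fold changes of 0.64, 0.55, 0.40 and 0.29, none of them called (adjusted p 0.313 to 0.669).

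Fast troponin C, tnnc2.1, had a signal of 2.54 to 4.02 with a median of 3.91 in exercised fish and of -0.71 to 3.77 with a median of 3.55 in non-exercised fish. Its log2 fold change was 0.66 ± 0.53 (adjusted p = 0.567), and non-exercised fish 6 lay far below the other fish of its group, the next being at 2.48. The slow and cardiac troponin genes showed no shift that passed the test. Slow troponin C, tnnc1b, ran from 6.84 to 8.04 with a median of 7.53 in the 6 exercised fish measured (fish 1 and 2 left out) and from 6.79 to 8.78 with a median of 7.61 in non-exercised fish, a log2 fold change of -0.16 ± 0.34 (adjusted p = 0.795). Slow troponin I, tnni1b, ran from -0.31 to 2.38 with a median of 0.92 in exercised fish and from 0.22 to 3.59 with a median of 0.75 in non-exercised fish (-0.16 ± 0.46, adjusted p = 0.843). The groups overlap almost wholly, and the highest fish for both genes was non-exercised fish 8. The troponin I gene tnni4a gave 0.43 ± 0.39 (adjusted p = 0.614).

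Tropomyosins lie along actin and block or expose its myosin sites. The alpha-tropomyosin gene tpma (A_15_P109860) ran from 8.34 to 9.39 with a median of 9.01 in the 5 exercised fish measured and from 7.21 to 8.82 with a median of 8.12 in the 5 non-exercised fish measured. Its log2 fold change was 0.91 ± 0.41 (adjusted p = 0.24), and its second probe gave 0.74 ± 0.37 (adjusted p = 0.294). On the brightest probe, the spots of exercised fish 1, 2 and 4 and of non-exercised fish 3, 4 and 5 had been left out. That of exercised fish 1 was at 7.38, within the non-exercised range. The gene tpm1 had the narrowest spread of the 36 genes, from 1.69 to 2.33 in exercised fish and from 1.26 to 2.34 in non-exercised fish, and gave 0.36 ± 0.21 (adjusted p = 0.394). For tpm3, which codes for the slow isoform in mammals, the change was -0.15 ± 0.35 (adjusted p = 0.811) with exercised fish 2 and 3 and non-exercised fish 6 left out, and 0.14 with these spots kept. The non-muscle tropomyosin tpm4a gave -0.07 ± 0.26 (adjusted p = 0.878). The kelch protein gene klhl41b, whose product stabilises nebulin on the thin filament in the mouse, ran from 4.57 to 5.47 in the 7 exercised fish measured and from 3.78 to 6.56 in non-exercised fish, with -0.06 ± 0.37 (adjusted p = 0.936), and -0.27 with the spot left out kept.

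**Figure D2:**
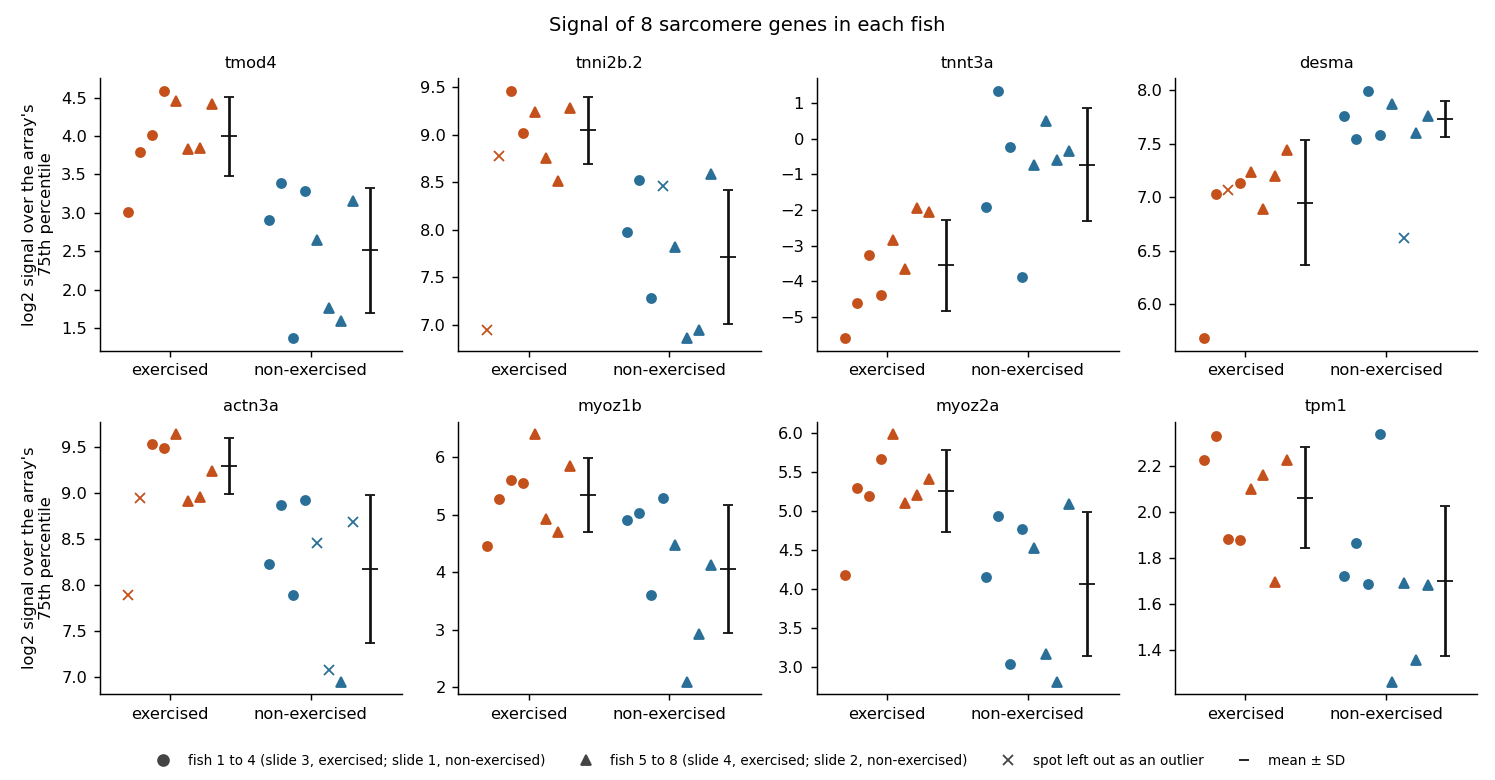
Signal of 8 genes in each fish (y axis, log2 over the array's 75th percentile, each panel on its own scale), exercised fish at left and non-exercised fish at right, with circles for fish 1 to 4, triangles for fish 5 to 8, crosses for spots left out, and bars for the mean ± SD of the measured fish. In tmod4 and myoz2a 7 exercised fish lie above every non-exercised fish; in tnnt3a 7 non-exercised fish lie above every exercised fish; and in desma the groups separate only without the crossed spot of non-exercised fish 6.

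The Z disc genes leaned to higher values in exercised fish without a gene passing the test. Of 18 genes, 17 had a log2 fold change above 0 (94.4%, against 54.5% of the named genes), with a median of 0.33, and of the 12 detected on all 16 arrays 11 did so (median 0.63, against 46.3% above 0 among the named genes detected on all arrays). At an unadjusted p under 0.05, 6 of the 18 passed in either direction (33.3%, against 23% of the named genes). One of these, desma, was lower in exercised fish. Against all non-exercised fish, these 12 had a median of 0.67 with the exercised fish of slide 3 alone and of 0.53 with those of slide 4 alone. The genes of the class moved together in single fish, so the counts above are not separate readings of the groups. With all spots kept, exercised fish 1 and non-exercised fish 6 lay below the gene mean in 12 of the 12, and non-exercised fish 7 in 11. Without non-exercised fish 6, 9 of the 12 were above 0 (median 0.43, against 39.9% of the named genes detected on all arrays). Without exercised fish 1, 11 were (median 0.68, against 48.8%). After a median shift, which moved the named genes detected on all 16 arrays to a median of -0.31 with 29.8% above 0, 8 of the 12 were above 0 and their median was 0.35. The lowest adjusted p of the class was 0.0613. Part of this lean was shared with the other sarcomere genes. Of all 36 sarcomere genes detected on all 16 arrays, Z disc genes included, 26 were above 0 (72.2%, median 0.38). Of the thin filament genes so detected, 10 of 15 were above 0 (median 0.36).

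Alpha-actinin crosslinks the thin filaments at the Z disc, and actn3 is its fast-fibre form. The signal of actn3a (A_15_P111858) ran from 8.92 to 9.64 with a median of 9.36 in the 6 exercised fish measured (fish 1 and 2 left out) and from 6.96 to 8.93 with a median of 8.24 in the 5 non-exercised fish measured (fish 5, 6 and 8 left out). The measured groups overlap by a narrow margin, and the log2 fold change was 1.12 ± 0.38 (adjusted p = 0.104). With the spots kept it was 0.94 (adjusted p = 0.117), and the overlap was wider, since exercised fish 1 lay at 7.89, within the non-exercised range. For actn3b the change was 0.96 ± 0.43 (adjusted p = 0.231) with 1 exercised and 4 non-exercised spots left out, and 0.56 with the spots kept. Myozenins bind alpha-actinin and calcineurin at the Z disc, myoz1 mainly in fast and myoz2 in slow and cardiac muscle of mammals. The fast gene myoz1b ran from 4.46 to 6.41 with a median of 5.41 in exercised fish and from 2.1 to 5.29 with a median of 4.30 in non-exercised fish, and no spot was left out. Its log2 fold change was 1.29 ± 0.43 (adjusted p = 0.0841), its second probe gave 1.27 ± 0.40 (adjusted p = 0.0681), and all 8 exercised fish lay above the non-exercised mean. The gene myoz2a, typed here as slow or cardiac, was the nearest to the threshold (1.19 ± 0.37, adjusted p = 0.0613). Its signal was 4.19 to 5.99 with a median of 5.25 in exercised fish and 2.82 to 5.09 with a median of 4.35 in non-exercised fish. All exercised fish but fish 1 lay above every non-exercised fish, while the sister gene myoz2b gave 0.08 ± 0.29 (adjusted p = 0.884). The genes actn3a, myoz1b and myoz2a passed the threshold after quantile normalization (adjusted p 0.03, 0.0496 and 0.0362), after cyclic loess (0.0128, 0.0158 and 0.0121) and among probes detected on all 16 arrays (0.0335, 0.0355 and 0.0237), and not with the slide as a random block (adjusted p 0.499 to 0.681).

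The LDB3 proteins bind alpha-actinin and hold the Z disc together under load. The genes ldb3a (0.82 ± 0.41, adjusted p = 0.302) and ldb3b (0.81 ± 0.35, adjusted p = 0.2) had the same direction on all 5 of their probes, from 0.40 to 0.82, and with the spots kept the brightest probes gave 0.54 and 0.67. Desmin is the intermediate filament that links Z discs of neighbouring myofibrils, and desma (A_15_P108123) was the one Z disc gene with a negative value. Its signal ran from 5.68 to 7.45 with a median of 7.14 in the 7 exercised fish measured and from 7.54 to 7.99 with a median of 7.76 in the 7 non-exercised fish measured. The measured groups did not overlap, a pattern that 0.42% of the named genes showed in this direction, but the log2 fold change of -0.78 ± 0.28 did not pass (adjusted p = 0.112). The spot of non-exercised fish 6, left out, was at 6.62 and within the exercised range, and with it and that of exercised fish 3 kept the change was -0.63 (adjusted p = 0.209). The gene passed the threshold after normexp correction, quantile normalization, cyclic loess and a median shift (lowest adjusted p 0.0151, highest 0.0371), with array weights (0.0356), and among probes detected on at least 8 or on all 16 arrays (0.0422 and 0.0344). The LIM protein gene csrp3, a sensor of stretch in muscle, ran from -4.07 to 0.36 in exercised and from -3.80 to 1.38 in non-exercised fish, detected in 3 and 4 fish, and gave 0.11 ± 0.71 (adjusted p = 0.937). The other Z disc genes, of the FHL, PDLIM and CSRP families, lay between 0.03 and 0.45.

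The thick filament genes showed no common direction. By limma 0 of the 14 were called, against 3.21% of the named genes called higher and 3.01% lower. At an unadjusted p under 0.05, 1 passed, myl9a (7.14%, against 23% of the named genes). Of the 14, 7 were above 0 and 7 below, and the median was 0.005. Of the 9 detected on all 16 arrays, 5 were above 0 and 4 below, with a median of 0.33. The 5 fast genes had a median of 0.39. The regulatory light chain mylpfa, which sits on the neck of the fast myosin head, ran from 8.77 to 9.79 with a median of 9.48 in the 7 exercised fish measured (fish 1 left out) and from 8.06 to 9.25 with a median of 9.0 in the 6 non-exercised fish measured (fish 7 and 8 left out). Its log2 fold change was 0.47 ± 0.29 (adjusted p = 0.412), and 5 exercised fish lay above every non-exercised fish. The spot of exercised fish 1, left out, was at 7.57 and below those of all other fish. The essential light chains myl1 (0.33 ± 0.36, adjusted p = 0.661, with exercised fish 1 to 4 and non-exercised fish 3 and 4 left out) and mylz3 (0.50 ± 0.41, adjusted p = 0.567) overlapped between the groups. The light chain gene myl13 gave -0.33 ± 0.32 (adjusted p = 0.633) on its brightest probe, with exercised fish 1 to 3 and non-exercised fish 6 left out, -0.18 with these spots kept, and 0.08 and 0.03 on the other probes. Myosin binding proteins bridge myosin molecules in the filament, and mybpha gave -0.07 ± 0.41 (adjusted p = 0.928) and the slow form mybpc1 -0.24 ± 0.35 (adjusted p = 0.711, non-exercised fish 5 left out, and -0.38 with it kept). Of the non-muscle and smooth muscle light chains, myl9a was higher in 7 of 8 exercised fish than the non-exercised mean (0.83 ± 0.34, adjusted p = 0.164) and myl12.1 was at -0.44 ± 0.25 (adjusted p = 0.348, exercised fish 7 left out).

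The fast genes myhz2 and mylpfb spread far more widely among the non-exercised fish than between the groups, and the second probe of tnnt3a sorted the non-exercised fish in the same way. The fast myosin heavy chain gene myhz2 (A_15_P120396) had 2.95, 2.5 and 3.57 in non-exercised fish 1, 3 and 4, against 8.18, 6.52, 6.31 and 7.35 in non-exercised fish 2, 5, 7 and 8. All exercised fish lay between these sets, from 5.09 to 6.21. The SD was 0.41 in exercised fish (n = 8) and 2.29 in non-exercised fish (n = 7, fish 6 left out at 6.9), and the log2 fold change of 0.39 ± 0.73 (adjusted p = 0.756) was smaller than the distance between the sets of non-exercised fish. With non-exercised fish 6 kept it was 0.20. The second probe (A_15_P103788) put the same non-exercised fish low (0.38, 1.89 and 2.44) and high (8.69, 6.73, 6.69 and 6.89) and ran from 1.74 to 5.91 in exercised fish, with the opposite sign (-1.31 ± 1.08, adjusted p = 0.579).

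The fast regulatory light chain mylpfb (A_15_P113115) had -4.23, -3.90 and -2.92 in non-exercised fish 1, 3 and 4, which were not detected there, 4.23 in fish 2, and -0.25, 2.18, 1.37 and 1.93 in fish 5 to 8. The exercised fish again lay inside that range, from -1.77 to 1.22, with fish 2, 3 and 7 highest, and the SD was 1.24 in exercised and 3.15 in non-exercised fish (-0.39 ± 1.05, adjusted p = 0.838). In tnnt3a, the second probe put non-exercised fish 1, 3 and 4 at -4.37, -4.22 and -3.86 and fish 2 and 5 to 8 between -0.62 and 1.09. The brightest probe put fish 4 at -3.87 and fish 2 at 1.34 as well, but fish 1 at -1.92 and fish 3 at -0.23. Non-exercised fish 2 was the highest of all 16 fish in the 3 genes. Fish 1, 3 and 4 shared slide 1 with the high fish 2. The low fish did not stand apart in mylpfa (8.87, 8.71 and 9.13, against 8.06 to 9.25 in the other non-exercised fish measured). The gene myhz2 is one of several fast myosin heavy chain genes of very similar sequence, and whether its probes also bind the others was not tested.

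**Figure D3:**
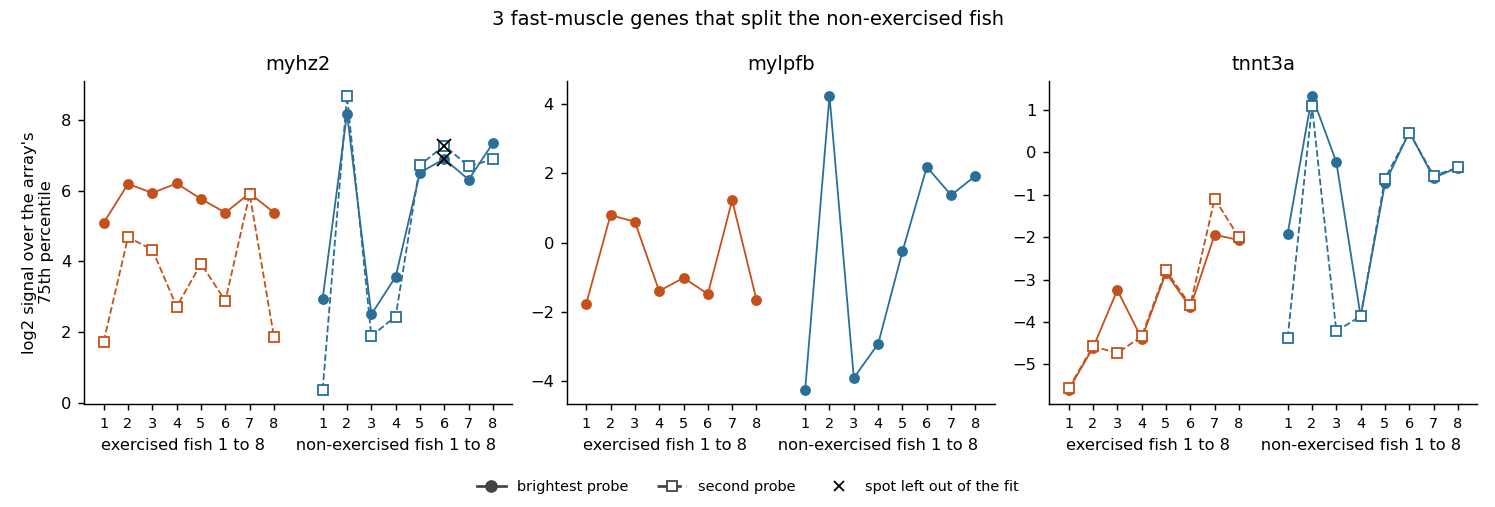
Signal (y axis, log2 over the array's 75th percentile) of myhz2, mylpfb and tnnt3a in exercised fish 1 to 8 (left) and non-exercised fish 1 to 8 (right), with filled circles for the brightest probe, open squares for the second probe and crosses for spots left out. Non-exercised fish 2 is the highest in each panel, and non-exercised fish 1, 3 and 4 are low on both probes of myhz2, on mylpfb and on the second probe of tnnt3a.

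Fast isoforms had higher median changes than slow or cardiac ones. Of the 14 fast genes 12 had a log2 fold change above 0, with a median of 0.49, and of the 11 slow or cardiac genes 6 did, with a median of 0.08. Among genes detected on all 16 arrays, 11 of 11 fast genes were above 0 (median 0.59) and 4 of 6 slow or cardiac genes (median 0.11), while the sign of tnnt3b turned after normexp correction, quantile normalization, cyclic loess and a median shift, and that of myl1 after a median shift and cyclic loess. The isoform types were assigned by symbol, partly from mammalian orthologues, and 23 genes, tpm3 among them, were typed as other. The gap between the fast and the slow or cardiac medians moved with the processing. Among genes detected on all 16 arrays they were 0.34 and 0.14 after cyclic loess and 0.37 and 0.17 after quantile normalization. After normexp correction they were 0.40 and 0.12, and after a median shift 0.33 and -0.14. Without non-exercised fish 6 they were 0.39 and -0.05. The difference between the isoform types was not tested. Of 12 fast muscle markers, 4 of them among the sarcomere genes, 9 were above 0 (median 0.55), and their summed signal ran from 10.8 to 12.8 in exercised and from 10.9 to 12.4 in non-exercised fish. Of these casq1a, calsequestrin of the calcium store, was called higher (1.42 ± 0.40, adjusted p = 0.0385, and 0.593 with the slide as a random block) and tnnt3a lower, while the creatine kinase gene ckma gave 1.07 ± 0.43 (adjusted p = 0.176).

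Markers of other cells were read beside these results. All 7 red blood cell markers had a log2 fold change above 0 (median 1.36, 0 called, lowest adjusted p 0.0537), and their summed signal ran from 7.83 to 9.64 in exercised and from 6.18 to 8.5 in non-exercised fish. Of 6 skin markers, all above 0 (median 0.51), 1 was called, krt15 (adjusted p = 0.305 with the slide as a random block). Of 6 liver markers, 1 dim gene was called, apoa1a (adjusted p = 0.607 with the slide as a random block), detected in 1 exercised and 0 non-exercised fish. Of 7 heart markers 4 were detected on no array and 0 were called, of 7 slow muscle markers 0 were called (median -0.16), and of 2 smooth muscle markers 0 were called. Only 4 of the heart markers and 3 of the slow muscle markers lie outside the sarcomere genes described here, so these lists are not a separate reading. Those 3 slow muscle markers gave 1.36 (cahz, also a red blood cell marker), 0.46 (mb) and -0.29 (prox1a). The summed slow muscle signal ran from 7.38 to 9.17 in exercised and from 7.26 to 9.03 in non-exercised fish. The part of these cells in the sarcomere results was not tested.

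The spread between fish was wider in non-exercised fish for most of the 36 genes detected on all arrays. The SD was larger in non-exercised fish for 31 of 36 genes (86.1%), with medians of 0.42 in exercised and 0.72 in non-exercised fish. The same held for 69.9% of the 1876 named genes detected on all arrays, with medians of 0.43 and 0.56. With the outlier spots kept it held for 24 of the 36 genes (medians 0.58 and 0.71). The share of named genes was taken only with these spots left out. Whether the sarcomere genes exceed it with the spots kept was not tested. The largest spreads over both groups among these genes were those of myhz2, tnnc2.1 and tnni1b, and the smallest those of tpm1, myl12.1 and tnnt3b. For tnnt3b this holds over the 4 spots of each group that were measured (SD 0.42 in exercised and 0.30 in non-exercised fish), and with all spots kept its SDs were 0.62 and 0.73. Desma had the reverse pattern, with SDs of 0.58 in exercised and 0.17 in non-exercised fish, and of 0.54 and 0.42 with all spots kept. Singled out after its values were seen, the beta-tropomyosin gene tpm2 had an SD of 0.06 over the 5 exercised fish measured and 0.74 over the 8 non-exercised fish. That narrow spread rests on the spots left out: with those of exercised fish 1, 2 and 3 kept (7.14, 8.61 and 8.7) the SD in exercised fish was 0.56, and the log2 fold change was 0.21 in place of 0.43.

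**Figure D4:**
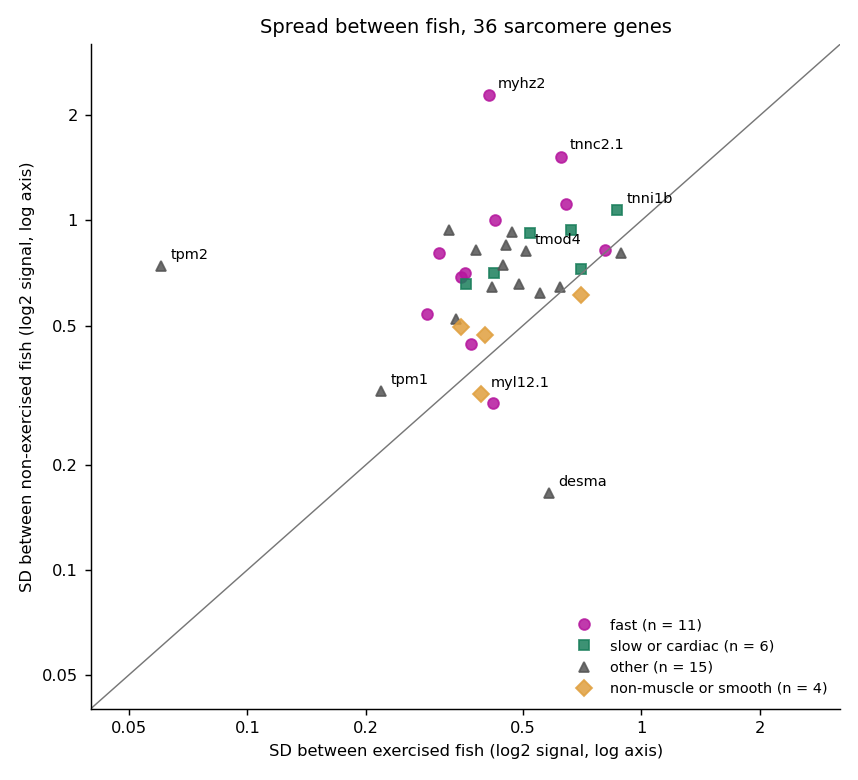
SD between exercised fish (x axis) and between non-exercised fish (y axis) of the log2 signal for the 36 genes detected on all 16 arrays, both axes logarithmic, with outlier spots left out, marked by isoform type; the line marks equal spread. Points above the line, 31 of 36, had the wider spread in non-exercised fish, with myhz2 highest and desma farthest below the line.

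Much of this spread was shared between genes of the same fish. Taking each gene's distance from its mean of 16 fish with all spots kept, the median over the 36 genes was -0.89 in exercised fish 1 and between -0.01 and 0.51 in the other exercised fish. It was -1.13 and -0.76 in non-exercised fish 6 and 7 and between -0.24 and 0.35 in the other non-exercised fish. Exercised fish 1 lay below the gene mean in 34 of 36 genes, non-exercised fish 6 in 33 and non-exercised fish 7 in 32, and non-exercised fish 6 was the lowest of the 16 fish in 18 genes. The arrays of these 3 fish had 54%, 48.5% and 47.3% of their probes well above background, while that of exercised fish 3, with 48.7%, stood at 0.51. The mean log2 signal of the negative control probes, minus the array's 75th percentile, was -5.31, -4.81 and -4.79 on these 3 arrays. Those were the lowest values of the 16 arrays, and exercised fish 3 came next at -4.59. Whether this scaling has a part in the low sarcomere values was not tested. The medians of the fish were taken over sarcomere genes only, and whether other genes were low in the same 3 fish was not tested. Over the 11 fast genes the medians were -0.92 in exercised fish 1 and -1.36 and -1.12 in non-exercised fish 6 and 7. Over the 6 slow or cardiac genes the same 3 fish were low as well (-0.48, -1.18 and -0.41 in that order). Some other fish ranked differently there. Non-exercised fish 8 (0.78) and 4 (0.70) were highest over the slow or cardiac genes. Exercised fish 5, the highest of all fish over the fast genes (0.78), was the lowest exercised fish over the slow or cardiac genes (-0.56). Over the Z disc genes the group means of these medians were 0.28 ± 0.43 in exercised and -0.24 ± 0.64 in non-exercised fish (SD, n = 8 each), and the groups overlapped.

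**Figure D5:**
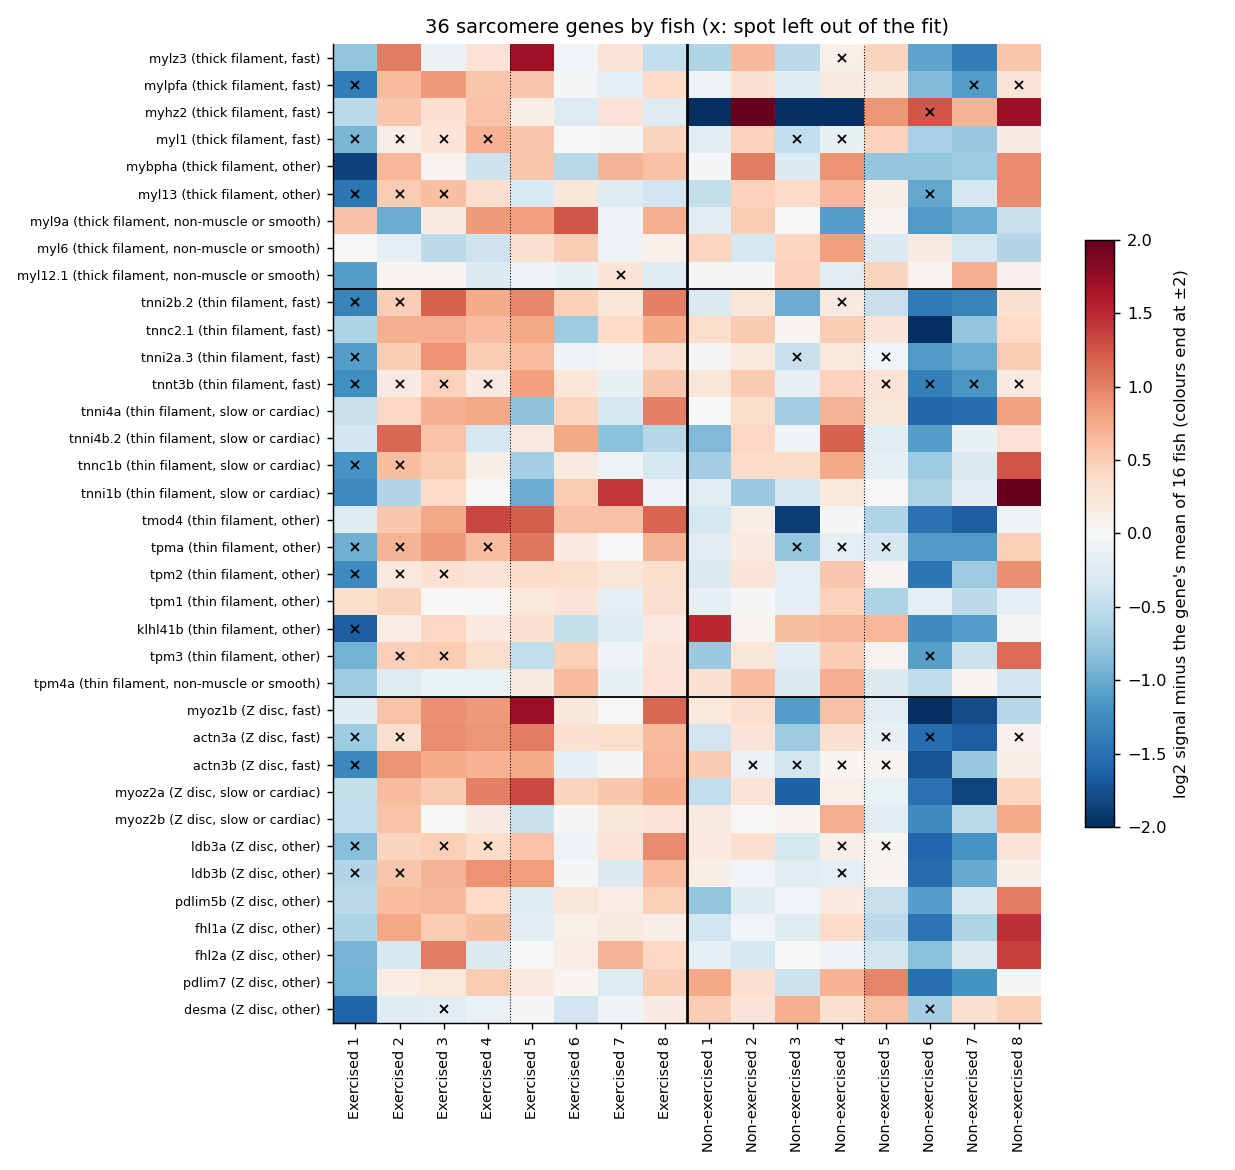
Distance of each gene's log2 signal from its mean of 16 fish (colour, red above and blue below, ending at ±2) for the 36 genes detected on all arrays (rows, by class and isoform) in exercised fish 1 to 8 and non-exercised fish 1 to 8 (columns), all spots kept and crosses on those left out of the fit. The columns of exercised fish 1 and non-exercised fish 6 and 7 are mostly blue, and crosses are most frequent on exercised fish 1 and 2.

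Genes that build and maintain the sarcomere from outside it were read from a separate list of 60, of which 28 had a named probe. Of these, 2 passed the test upward (3.21% of all named genes did) and 1 downward (3.01%), with a median of 0.11. With the slide as a random block the 3 calls were lost at the same log2 fold changes (adjusted p = 0.099 for capn3a, 0.365 for fbxo32 and 0.436 for wdr1). The muscle calpain gene capn3a, a protease held on titin, rose by 1.63 ± 0.25 (adjusted p = 0.0008), with signals of 2.4 ± 0.44 in exercised and 0.78 ± 0.40 in non-exercised fish (SD, n = 8 each). The ubiquitin ligase gene fbxo32 was dim, detected in 4 exercised and 1 non-exercised fish, and was called higher (adjusted p = 0.0301). Most of its values are background, so no size is given for its change. The gene wdr1, whose product helps cofilin take actin filaments apart, fell by 1.26 ± 0.29 (adjusted p = 0.0147), with 2.3 ± 0.43 in exercised and 3.56 ± 0.64 in non-exercised fish. The myosin chaperone gene unc45b was at -1.58 ± 0.50 (adjusted p = 0.0675) and its partner in myosin folding hsp90aa1.1 at -0.82 ± 0.44 (adjusted p = 0.327). Of the ring finger proteins of the sarcomere, trim63b was at 1.02 ± 0.36 (adjusted p = 0.103) and trim63a at 0.23 ± 0.32 (adjusted p = 0.698).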

How the data were processed

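RNA from the fast muscle of 16 zebrafish was measured on Agilent arrays in 1 colour, 1 fish per array. The authors read the arrays with Agilent Feature Extraction 10.7.3.1, whose deposited intensity per spot (the processed signal) is background-subtracted and not scaled between arrays. Here log2 of it was taken, the array's 75th percentile over 43803 non-control probes was subtracted, and outlier spots (49 to 892 per array) were left out, with no spot saturated. RefSeq accessions were read for 11316 probes, and 9104 of them gave 1 symbol, for 5952 genes. Probes were fitted with limma 3.58.1 (lmFit, eBayes; R 4.3.3, statmod 1.5.0), with group as the only term, Benjamini-Hochberg adjustment over all probes and a threshold of 0.05. A gene stands for its brightest probe. A fold written as at least N-fold is a bound for a probe detected in no fish of one group: there each dim array takes its own value or that of its faintest detected probe, whichever is larger. Arrays give no counts, so the number of fish limits precision. The p-values set the difference between the groups against the spread between fish within a group, array noise included. The fish of a group shared a tunnel and a scan day, so no spread between tunnels or scan days enters these p-values.

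The members and lists were chosen with earlier results of these data known. Genes named are those called, the 2 largest changes of each class and isoform type among genes above background on all 16 arrays, textbook sarcomere genes, and the 3 widest and 3 narrowest spreads; tpm2 and the genes of other lists were added after their values were seen. Alternatives were no background correction, normexp (offset 50) with quantile normalization, quantile normalization, median shift, cyclic loess, background filters, the methods' t-test, slide and replicate blocks, slides 3 and 4 alone, array weights, outlier spots kept, probe means and each fish left out. The files read here hold no mean spot signal, so that the median spot signal was used for normexp and for the run without background correction. The labels number the replicates within each group and name no pairs, and the main fit did not use the numbers. The correlation of same-numbered fish, given below, does not settle whether the numbers pair the fish. The fits were tested on simulated data. The authors' deposited table of fold changes and p-values of selected probes was not used. Figures were made with Python 3.11.15 and matplotlib 3.10.9. No probe sequences are shown.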

Additional observations from a re-analysis of the deposited data

Results flagged for a closer look

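Among the named genes, 64 groups of 4 to 8 measured fish were searched for a fish whose gap to its nearest neighbour exceeded Dixon's critical value. Chance passes that value in about 1 of 20 groups, and 4 cases were found in the 64 groups, which is near that share. The genes tnnc2.1 and tnni1b were named partly for their wide spread, so a flagged fish there is not independent of the choice of genes. Exercised fish 1 lay low in desma, at 5.68 with the next exercised fish at 6.89, and in myl12.1, at 3.64 with the next at 4.46. The array of exercised fish 1 is also the one with the most spots left out among the sarcomere genes (14 of 54). Non-exercised fish 6 lay low in tnnc2.1, at -0.71 with the next at 2.48. Non-exercised fish 8 lay high in tnni1b, at 3.59 with the next at 1.18, and that fish was also the highest of its group in tnnc1b (8.78) and csrp3 (1.38).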

How the results depend on the processing

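The main counts were 2 sarcomere genes called higher and 1 lower. Higher calls numbered 5 after normexp correction, quantile normalization or cyclic loess and with either filter on detected probes (actn3a, myoz1b, myoz2a, tmod4 and tnni2b.2 each time), 1 after a median shift or with outlier spots kept (tmod4), 0 with the slide as a random block or slide 3 alone, and 7 with slide 4 alone. Lower calls numbered 2 after normexp correction, quantile normalization, a median shift, cyclic loess, the methods' t-test without adjustment or array weights (desma and tnnt3a each time), and 0 with the slide block, with slide 4 alone and for probe means. With each fish left out they ranged from 1 to 3 higher and stayed at 1 lower. The share of named genes called was not taken for these runs or for probe means. Over all genes of a class, a median shift turned the sign of the median for the thin filament (-0.05, against 0.20) and the thick filament (-0.25, against 0.005). It also did so for the slow or cardiac genes (-0.17, against 0.08) and gave 0.08 for the Z disc (against 0.33). The lowest median of the slow or cardiac genes over all runs was -0.28. Leaving out each fish in turn gave medians from -0.12 to 0.17 for the thick filament and from -0.10 to 0.19 for slow or cardiac genes. For the thin filament they ran from 0.11 to 0.36 and for the Z disc from 0.28 to 0.60. Among genes detected on all 16 arrays a median shift gave -0.04 for the thick filament (against 0.33), -0.14 for slow or cardiac genes (against 0.11) and 0.35 for the Z disc (against 0.63). There the thick filament was at -0.004 without non-exercised fish 1 and -0.018 without non-exercised fish 3. Slow or cardiac genes were at -0.05 without non-exercised fish 6 and -0.005 without exercised fish 2. The median SD of the 36 genes so detected was 0.42 in exercised fish, and 0.58 with outlier spots kept. The replicate number as a block added myoz2a (adjusted p = 0.0489), and the correlation of same-numbered fish ran from 0.03 to 0.41, with 3 of 8 exercised fish closest to their own number.

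Some log2 fold changes that had not passed the test turned sign. After normexp correction mybpha was 0.014 and tnnt3b -0.0065, and after quantile normalization tnnt3b was -0.10. A median shift gave csrp3 -0.14, myoz2b -0.17, myl1 -0.037 and tnnt3b -0.20. Cyclic loess gave csrp3 -0.0085, myl1 -0.045, mybpha 0.015, tnnt3b -0.033 and tpm4a 0.062. Without background correction myoz2b was -0.0039. Array weights gave myoz2b -0.013, mylpfb 0.30 and tnnt3b -0.080. Probe means gave csrp3 -0.046 and myhz2 -0.46. With outlier spots kept tpm3 was 0.14. Slide 3 alone gave myl13 0.083, klhl41b 0.12 and tnnc1b 0.21, and slide 4 alone mybpha 0.28, mybpc1 0.039, tpm4a 0.20 and tnni1b 0.12. With the replicate block klhl41b was 0.14. With each fish left out, ranges crossed 0 for csrp3 (-0.22 to 0.60), myoz2b (-0.10 to 0.19), myhz2 (-0.079 to 0.87), mylpfb (-0.96 to 0.25), mybpha (-0.19 to 0.19), tnnt3b (-0.068 to 0.26), tpm4a (-0.17 to 0.023), klhl41b (-0.26 to 0.14), tpm3 (-0.29 to 0.026), tnnc1b (-0.28 to 0.0055) and tnni1b (-0.38 to 0.20). The cause of these changes was not tested. Dim probes limit tnnt3a, csrp3 and the cardiac genes, and outlier spots limit the brightest fast genes.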

Other observations

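Probes of the same gene sometimes gave different values, and these genes were picked after their values were seen. For pdlim1, detected in few fish, probe LOL04184 gave -0.80 ± 0.39 (adjusted p = 0.263), while its 3 other probes gave 0.21 to 0.42. For pdlim5b, exercised fish 5 read 3.80 on probe A_15_P117063 and -1.03 on probe A_15_P119498.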
